A study of Homo sapiens with 6 samples.

Results

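The genes described are those of the tissue factor pathway and the protease-activated receptors: tissue factor (F3), its inhibitors TFPI and TFPI2, the protein C pathway genes THBD, PROCR and PROS1, and the receptors F2R, F2RL1 and F2RL2. Members were the probe sets that carried 1 of these 9 symbols as their only gene in the platform annotation. This gave 17 of 54613 probe sets, for 8 of the 9 genes. No probe set carried F2RL1 alone, so that receptor was not analysed here. Of the 17 probe sets, 13, from 7 genes, were over the detection level and entered the test, and 4 did not. The cells were of MDA-MB-231, a widely used line of basal type from a human breast carcinoma, grown in medium with 10% serum. They had been transduced with lentivirus carrying enhanced green fluorescent protein alone (GFP control, 3 arrays) or GATA3 together with GFP (3 arrays), and each was sorted on GFP. Both groups thus carry a lentivirus and GFP, and the promoter that drives GATA3 is not given in the sources used here. RNA was taken 2 days after the cells were seeded. The title of the series ties GATA3 to a luminal state and to fewer metastases through lower lysyl oxidase. Clotting proteins are not named there.

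Tissue factor is a cell surface receptor for factor VII, and the complex they form starts blood coagulation by activating factor X. TFPI, a secreted and surface-bound protein with Kunitz domains, blocks that complex once factor X has been activated. Thrombomodulin (THBD) turns thrombin from a clotting enzyme into an activator of protein C, a step that the endothelial protein C receptor (PROCR) aids, and protein S (PROS1) is the cofactor of both activated protein C and TFPI. Protease-activated receptors are G protein-coupled receptors that clotting and other proteases switch on by cutting their N-terminus. F2R is the main thrombin receptor, F2RL1 responds to trypsin-like proteases and to the tissue factor complex, and F2RL2 serves mostly as a partner of other receptors. Tissue factor and F2R are made by many carcinoma cells, MDA-MB-231 among them.

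Levels are given on the log2 scale of GCRMA, and the test took in each probe set that exceeded 4, the detection level, on 3 or more of the 6 arrays. GATA3 itself was lower in the arrays labelled GATA3, by 1.66 on the log2 scale (SE 0.18) for its brightest probe set, from 9.39 ± 0.06 (SD, n = 3) to 7.73 ± 0.35 (SD, n = 3; adjusted p 0.00238 in limma). The readings of GATA3 thus go against that label, and every direction below rests on it: with the groups exchanged, each rise would be a fall and each fall a rise. Whether these probes read the introduced sequence is not known here. GATA3 replicate 3 stood apart, with a correlation of 0.984 and 0.986 to the other arrays of its group, which correlated at 0.997, and the name of its raw file alone ends in another number. What that number marks is not given in the labels. The labels do not say whether the 3 arrays per group were separate cultures, so p-values measure the spread between arrays, which may be technical. All 5 markers of the cell line (VIM, CD44, EGFR, AXL and MSN) lay over 4 on every array. Of 10 endothelial markers, 8 were under 4 on every array, PECAM1, CDH5 and VWF among them, while CLDN5 and ROBO4 were over it, with ROBO4 at a mean of 8.40 in the GFP control and 6.26 in the arrays labelled GATA3. All 6 leukocyte and platelet markers were under 4, as were 4 of 5 hepatocyte markers. The summed endothelial list read 31.44 to 31.69 in the GFP control and 29.38 to 30.38 in the arrays labelled GATA3. In that list ROBO4 was lower by 2.14 and CLDN5 higher by 0.32 (adjusted p 0.528 in limma), while the 8 others stayed under 4. The sum was 13.07 to 13.08 and 13.07 to 13.29 for the leukocyte and platelet list, and 13.69 to 13.70 and 13.70 to 13.91 for the hepatocyte list. Each array reads RNA of a whole population, in which fewer cells with a transcript and less of it per cell cannot be told apart.

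Promoters of the 3 genes whose brightest probe set was higher in the arrays labelled GATA3 are shown, to give the GATA words in them. That choice rests on the label, and with the groups exchanged these would be genes that were lower. They are the 250 bases before the RefSeq start, written 5′ to 3′ on the gene's strand. Capitals mark a GATA word (AGATAA or AGATAG or TGATAA or TGATAG, on either strand) or an AP-1 word (TGACTCA or TGAGTCA, on either strand). F3 lies on the minus strand at chr1:94541760-94542009, TFPI2 on the minus strand at chr7:93890754-93891003 and PROS1 on the minus strand at chr3:93973897-93974146, all in GRCh38.p14.
F3: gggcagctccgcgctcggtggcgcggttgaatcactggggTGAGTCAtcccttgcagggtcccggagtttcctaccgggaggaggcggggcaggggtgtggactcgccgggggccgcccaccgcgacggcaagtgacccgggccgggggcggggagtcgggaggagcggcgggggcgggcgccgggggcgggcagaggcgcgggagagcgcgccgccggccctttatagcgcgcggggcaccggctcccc
TFPI2: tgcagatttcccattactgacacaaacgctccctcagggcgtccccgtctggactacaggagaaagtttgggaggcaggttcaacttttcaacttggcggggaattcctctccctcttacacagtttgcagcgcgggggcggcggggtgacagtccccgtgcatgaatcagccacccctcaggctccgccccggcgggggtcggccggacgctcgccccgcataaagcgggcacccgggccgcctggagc
PROS1: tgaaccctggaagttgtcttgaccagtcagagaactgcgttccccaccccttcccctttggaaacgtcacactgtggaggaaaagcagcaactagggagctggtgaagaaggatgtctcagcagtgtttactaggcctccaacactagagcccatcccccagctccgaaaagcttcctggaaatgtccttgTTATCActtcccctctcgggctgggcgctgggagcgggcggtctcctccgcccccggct

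The PROS1 window held 1 GATA word, starting 59 bases before the start and lying on the opposite strand as TGATAA (printed above as TTATCA), and the F3 and TFPI2 windows held none. A GATA word was found in 22.3% of 35116 promoters of this length. The F3 window held 1 AP-1 word (TGAGTCA), which starts 210 bases before the start, against 4.2% of all promoters with at least 1. GC boxes (GGGCGG, either strand) were more common, with 42.6% of promoters holding 1 or more, and numbered 4 in the F3, 2 in the TFPI2 and 2 in the PROS1 window. Of the 9 members, 7 had an entry in the promoter table, and F2R and THBD had none. In the other windows, those of TFPI, PROCR, F2RL1 and F2RL2, no GATA word was found, and F2RL2 held 1 AP-1 word. These are matches of letters and not measured sites.

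Of the 13 tested member probe sets, 5 rose, 1 fell and 7 missed the threshold, an adjusted p under 0.05. The 5 that rose were those of F3 and PROS1, both of TFPI2 and 1 of 5 of TFPI, and the 1 that fell was that of F2R. As shares, 38.5% rose and 7.69% fell, against 11.3% higher and 14.0% lower (25.3% in all) among 23785 probe sets tested. The 5 probe sets that rose kept their direction in every fit. The share that rose changed when 1 array was left out, in fits that rest on fewer arrays. It was 7.69% when replicate 2 of either group was left out, near the 7.55% (GFP control) and 8.19% (GATA3) of all probe sets in those fits, and 15.4% without replicate 1 of either group, beside 8.52% (GFP control) and 8.62% (GATA3). It was 23.1% without GFP control replicate 3, beside 8.15%. It was higher without GATA3 replicate 3, at 46.2% beside 15.1%, and with array weights, at 53.8% beside 17.9%. The lowest weight, 0.1585, went to GATA3 replicate 3, so these 2 fits play down the same array. The share that rose stayed at 38.5%, beside 10.8% to 14.7%, after cyclic loess or quantile normalization, with a detection level of 5, and without an intensity trend. The share was also 7.69% with the replicate number as a block, beside 8.50%. Without a filter on low values it was 7.69% of the same 13, beside 3.38% of all 54613. The 4 member probe sets under the detection level entered that fit too but are not in its share, so these shares cover unlike sets. The share that fell was 7.69% of the same 13, 1 probe set, in every fit. Beside it, the share of all probe sets that fell ran from 3.24% (no filter on low values) to 21.5% (array weights). The arrays of the groups did not overlap in 9 of the 13 (69.2%), against 46.0% of all tested. Among the 9, THBD 203888_at, TFPI 214378_at and PROCR were apart by only 0.00, 0.01 and 0.02, and none of them passed. The median log2 change of the 13 was 0.20, beside -0.05 over all probe sets. With the brightest probe set of each gene, F3, TFPI2 and PROS1 rose, F2R fell, and TFPI, THBD and PROCR did not pass. Read in that way, 14.8% of 10814 genes were higher and 14.5% lower. Probe sets of 1 gene share their transcripts, so the 13 are not independent.

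**Figure D1:**
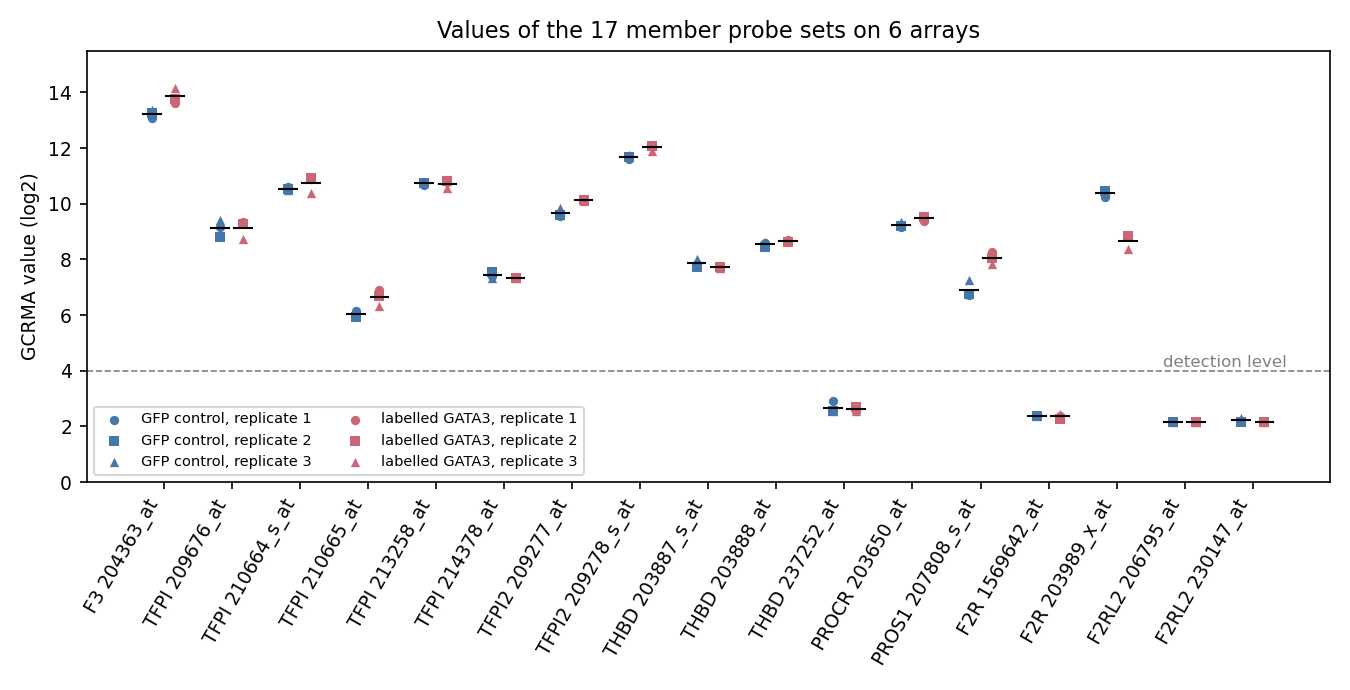
GCRMA values (log2, vertical axis) of the 17 probe sets of the pathway in the 3 GFP control arrays (blue) and the 3 arrays labelled GATA3 (red), with a black bar at each mean and a dashed line at the detection level of 4. F2R probe set 203989_x_at dropped from a mean of 10.39 to 8.68, PROS1 went from 6.91 to 8.05, and both F2RL2 probe sets lay under the line on all 6 arrays.

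F3, the trigger of coagulation, was bright in both groups and higher in the arrays labelled GATA3. Its single probe set (204363_at) read 13.09, 13.25 and 13.38 in the GFP control and 13.64, 13.77 and 14.16 in the arrays labelled GATA3. Every array labelled GATA3 was above every control array, with a gap of 0.25, and replicate 3 was the highest. The log2 change was 0.61 (SE 0.15, 95% interval 0.24 to 0.99), 1.53-fold, with an adjusted p of 0.0343 in limma. This call was near the threshold. It was lost without GFP control replicates 1, 2 or 3 (adjusted p 0.108, 0.107 and 0.0707) and without GATA3 replicate 2 (0.0788), fits that each have 1 array fewer, and without a filter on low values (0.141). Without GATA3 replicate 3 the change was 0.46 (adjusted p 0.0311). Of all tested probe sets, 16.8% had a larger change in either direction than F3.

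TFPI2, a Kunitz-type inhibitor close to TFPI that acts mostly on plasmin and trypsin-like proteases in the matrix, was higher by both of its probe sets. The brighter one (209278_s_at) read 11.61, 11.69 and 11.75 in the GFP control and 12.09, 12.08 and 11.91 in the arrays labelled GATA3. Its log2 change was 0.34 (SE 0.07), 1.27-fold (adjusted p 0.0154). The other (209277_at) read 9.55, 9.61 and 9.86 against 10.19, 10.15 and 10.11. That is a change of 0.48 (SE 0.09), 1.39-fold (adjusted p 0.0153). The groups did not overlap in either probe set, with gaps of 0.16 and 0.25, and both moved the same way by a similar amount. Both calls were lost without GFP control replicate 2 (adjusted p 0.0610 for 209278_s_at and 0.0647 for 209277_at), without GATA3 replicate 1 (0.0504 and 0.0524), without GATA3 replicate 2 (0.0591 and 0.0560) and without a filter on low values (0.0597 and 0.0580). That of 209278_s_at was also lost without GFP control replicate 1 (0.0550).

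TFPI, the inhibitor of the tissue factor complex itself, gave a mixed reading over its 5 probe sets. The dimmest (210665_at) read 6.13, 5.94 and 6.03 in the GFP control and 6.90, 6.69 and 6.32 in the arrays labelled GATA3. It rose by 0.60 (SE 0.16), 1.52-fold (adjusted p 0.0449 in limma), with no overlap between the groups. The brightest (213258_at) read 10.69, 10.76 and 10.79 against 10.80, 10.82 and 10.56, a change of -0.02 with a 95% interval of -0.22 to 0.18. The arrays of the groups overlapped there. The 3 others changed by 0.20 (210664_s_at, interval -0.19 to 0.58), -0.01 (209676_at, interval -0.57 to 0.55) and -0.10 (214378_at, interval -0.31 to 0.10), with adjusted p-values of 0.381, 0.982 and 0.402. In 214378_at the groups did not overlap, though they were apart by only 0.01. Probe set 210665_at was set against the 4 others because its change was the largest, so that it exceeded them was fixed by this choice. The excess was 0.40 to 0.70, with no overlap between groups in the difference per array. The 2-sided exact permutation p was 0.1 for each of these 4, the smallest that 3 arrays against 3 allow. It remained 0.1 when adjusted over 5 such comparisons, and it does not allow for the choice of 210665_at. Probe sets 210664_s_at and 210665_at were designed from the same transcript record, and their changes were 0.20 and 0.60. Which transcript forms of TFPI each reads is not known here.

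The calls of TFPI changed when 1 array was left out, in fits that rest on fewer arrays. The change of 210665_at was 0.47 to 0.76 over the alternatives. Its call was lost without GFP control replicates 1, 2 or 3 (adjusted p 0.0969, 0.141 and 0.129), without GATA3 replicates 1 or 2 (0.0870 and 0.124) and without a filter on low values (0.154). GATA3 replicate 3 was the lowest array of its group in 4 of the 5 TFPI probe sets, and in 214378_at it lay at 7.34, level with replicate 1. Without it, 210665_at rose by 0.76 (adjusted p 0.00767) and 210664_s_at by 0.38, which then passed (adjusted p 0.00450). Averaged over its tested probe sets, TFPI changed by 0.13 (adjusted p 0.393).

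PROS1, which encodes protein S, showed the largest rise of the members in the arrays labelled GATA3; with the groups exchanged it would be the largest fall, and F2R the only rise. Its probe set (207808_s_at) read 6.74, 6.75 and 7.25 in the GFP control and 8.26, 8.06 and 7.83 in the arrays labelled GATA3. The lowest array labelled GATA3 was 0.58 above the highest control array, GFP control replicate 3. The log2 change was 1.14 (SE 0.19, 95% interval 0.67 to 1.60), 2.20-fold, with an adjusted p of 0.00918, and 6.50% of all tested probe sets changed more. The change was 1.03 to 1.30 over the alternatives tried, and the call held in each fit with 1 array left out. It was lost with the replicate number as a block (adjusted p 0.0507). The suffix of this probe set marks probes shared by several transcripts, and PROS1 has a closely similar pseudogene, so how much of the signal is its own is uncertain and was not tested.

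The other protein C pathway genes did not pass. THBD had 2 tested probe sets of opposite sign. Probe set 203888_at read 8.58, 8.46 and 8.64 in the GFP control and 8.71, 8.64 and 8.69 in the arrays labelled GATA3, a change of 0.12 (95% interval -0.05 to 0.29, adjusted p 0.260). Probe set 203887_s_at read 7.85, 7.74 and 8.03 against 7.76, 7.73 and 7.69, a change of -0.15 (interval -0.38 to 0.08, adjusted p 0.286). The intervals leave room for changes of up to 1.22-fold higher by the first and 0.767-fold of the control by the second. The third THBD probe set (237252_at) was under the detection level on every array, at 2.56 to 2.90. PROCR read 9.15, 9.22 and 9.35 in the GFP control and 9.38, 9.54 and 9.50 in the arrays labelled GATA3. The groups were apart by 0.02, and the change of 0.23 (SE 0.08, 1.17-fold) had an adjusted p of 0.0872. Among the 13 alternatives it passed with array weights (adjusted p 0.0377) and in no other.

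**Figure D2:**
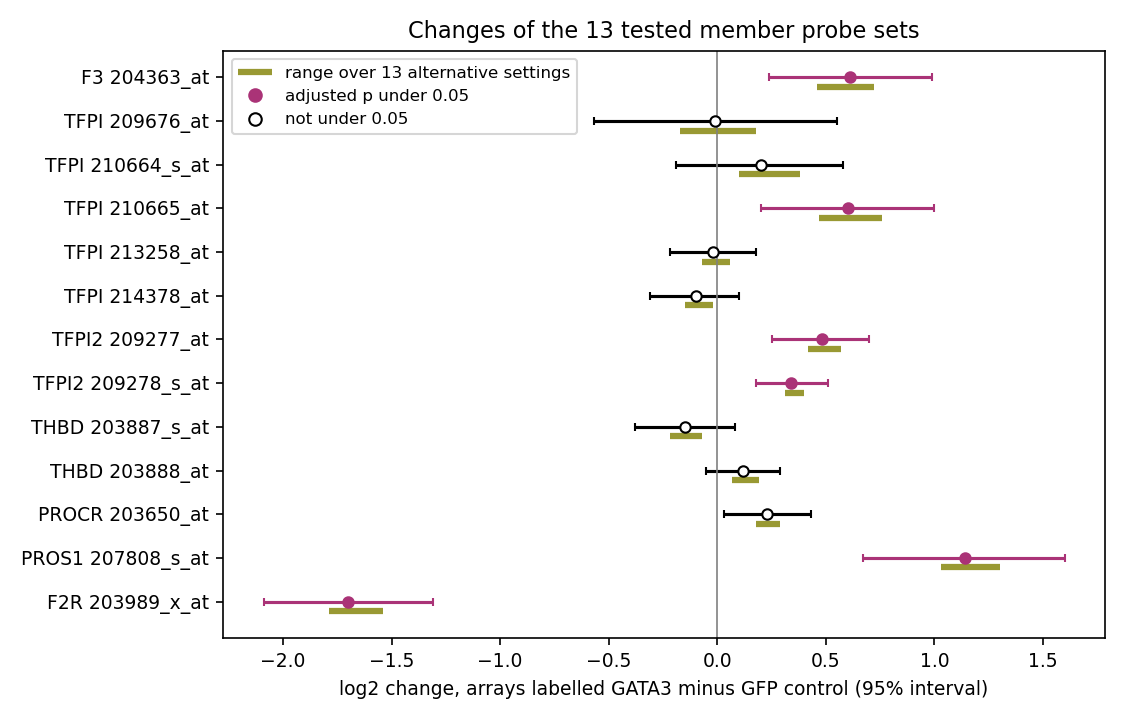
Log2 change (horizontal axis, arrays labelled GATA3 minus GFP control) of the 13 tested probe sets with its 95% interval from limma; filled points have an adjusted p under 0.05, and the olive bar spans the values under 13 alternative settings. F2R at -1.70 and PROS1 at 1.14 lie farthest from 0, while the 5 TFPI probe sets run from -0.10 to 0.60.

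F2R, the thrombin receptor, showed the largest change of all members, and the only fall. Probe set 203989_x_at read 10.23, 10.47 and 10.46 in the GFP control and 8.85, 8.83 and 8.36 in the arrays labelled GATA3. The groups were apart by 1.37, and GATA3 replicate 3 was the lowest array. F2R fell by 1.70 on the log2 scale (SE 0.16, 95% interval -2.09 to -1.31), 3.25-fold lower, with an adjusted p of 0.00126 in limma. A larger change was seen in 3.11% of tested probe sets. The call held under all 13 alternatives, with changes of -1.79 to -1.54 and adjusted p-values of 4.53e-05 to 0.0140. Without GATA3 replicate 3, which leaves the arrays whose raw-file names end in 1 common number, the change was -1.54 (adjusted p 0.00104). The suffix _x_at marks probes that may also bind unrelated transcripts, and the other F2R probe set (1569642_at) was under the detection level on every array, at 2.26 to 2.45. The fall of F2R thus rests on 1 probe set of lower specificity.

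F2RL2 stayed under the detection level. Probe set 206795_at read 2.16 on all 6 arrays, and 230147_at read 2.17 to 2.30 in the GFP control and 2.17 on each array labelled GATA3. The fourth receptor of the family, F2RL3, was under the detection level as well, at a mean of 2.16 in both groups. F2R and F2RL2 are direct neighbours in the order of protein-coding genes on chromosome 5 in the RefSeq table, with F2RL1 on the other side of F2R. Of these 3, a value over the detection level can be given for F2R alone.

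**Figure D3:**
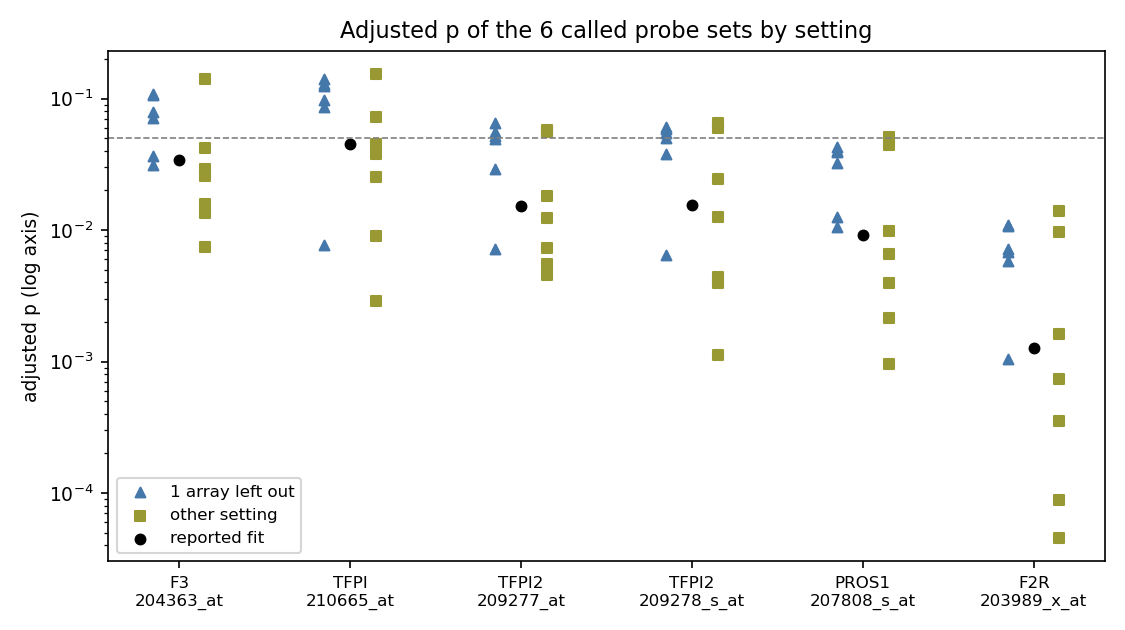
Adjusted p (vertical log axis) of the 6 probe sets that passed, in the reported fit (black), with 1 array left out (blue triangles) and under other settings (olive squares), with a dashed line at 0.05. F2R stayed under the line in all fits, PROS1 went over it once, at 0.0507, and the probe sets of F3, TFPI and TFPI2 lay on both sides.

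The genes whose profiles over the 6 arrays were nearest to those of F2R and PROS1 were sought among 10813 others, after each was centred on its own mean. For F2R they were AK4, a mitochondrial adenylate kinase, DOP1B and ENPP1, an enzyme that hydrolyses extracellular nucleotides, with root mean square differences of 0.05, 0.06 and 0.07 on the log2 scale. Their changes were -1.62, -1.75 and -1.77, each with its lowest value in GATA3 replicate 3, as in F2R. For PROS1 they were ENTPD7, another nucleotide-hydrolysing enzyme, MATCAP2 and FAM135A, at 0.08, 0.10 and 0.10. Their changes were 1.16, 1.19 and 1.23. With 2 groups of 3 arrays, likeness mostly reflects a similar difference between the groups.

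Genes of 6 lists around the pathway were read from the same fit, with the brightest tested probe set of each gene. Over all genes, 14.8% were higher and 14.5% lower, with a median change of -0.02. Of 17 genes of the coagulation cascade, 15 had no probe set over the detection level in enough arrays, among them F7 and F10, the partners of tissue factor, and F2, which encodes prothrombin. F12, the contact factor, rose by 0.56 (1.47-fold, adjusted p 0.0179), and F8 changed by 0.15 (adjusted p 0.266). F12 read 7.15 on all 3 GFP control arrays, and whether so even a value is signal was not tested. Its call was lost without any 1 of these arrays (adjusted p 0.0633, 0.0668 and 0.0676), without GATA3 replicate 1 (0.0561) and without a filter on low values (0.0565).

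Among 10 other inhibitors of coagulation and partners of protein S, 3 were measured, and 1 rose and 2 fell, with a median of -0.40. SERPINE2, a surface inhibitor of thrombin and other serine proteases, read 9.90, 9.88 and 10.08 in the GFP control and 7.77, 7.60 and 6.43 in the arrays labelled GATA3. It fell by 2.69 (SE 0.36, adjusted p 0.00479), 6.44-fold, and by 2.27 without GATA3 replicate 3 (adjusted p 0.000456). C4BPB, the chain of C4b-binding protein that binds protein S, rose by 1.52 (SE 0.07, 2.87-fold, adjusted p 0.000129), from 10.47 ± 0.14 (SD, n = 3) to 11.99 ± 0.03 (SD, n = 3). ANXA5, a protein that covers the phospholipids clotting enzymes need, fell by 0.40 (SE 0.03, adjusted p 0.000998). PROS1 and C4BPB, which encode proteins that bind each other, were thus both higher. C4BPA, for the other chain of C4b-binding protein, was under the detection level, at 2.16 on all 6 arrays.

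The genes that modify and carry clotting proteins moved little by their brightest probe sets. Of 8 in the vitamin K and transport list, 7 were measured, and 1 rose and 2 fell, with a median of 0.01. MCFD2, which works with LMAN1 in the export of clotting factors, fell by 0.27 (adjusted p 0.0117), and LMAN1 rose by 0.23 (adjusted p 0.0382). NQO1, a quinone reductase, fell by 0.22 (adjusted p 0.0230). The other tested probe sets of these genes moved the same way and by more. They changed by -0.44 for MCFD2, 0.48 and 0.50 for LMAN1, and -0.34 and -0.27 for NQO1. By the brightest probe set, the call of LMAN1 was lost in 8 of the 13 alternatives and that of NQO1 in 7, with the highest adjusted p at 0.121 and 0.0795. They included the fits without GFP control replicate 1 (adjusted p 0.109 for LMAN1 and 0.0786 for NQO1), GFP control replicate 3 (0.111 and 0.0795), GATA3 replicate 1 (0.10 and 0.0710) and GATA3 replicate 2 (0.115 and 0.0787). For LMAN1, the fit without GFP control replicate 2 (0.113) was another.

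Partners of the receptors mostly did not pass. Of 19 genes for G proteins, arrestins, exchange factors and receptor kinases, 15 were measured, and 2 rose, 2 fell and 11 did not pass, with a median of -0.08. With array weights 2 rose and 4 fell, and with the mean of all tested probe sets of a gene 1 rose and 4 fell. GRK3, a kinase that turns off activated receptors, rose by 1.95 (SE 0.23, 3.85-fold, adjusted p 0.00289), from 5.03 ± 0.10 (SD, n = 3) to 6.98 ± 0.44 (SD, n = 3). Its other tested probe set changed by 0.96. GNAQ, the G protein subunit that couples to phospholipase C, rose by 0.42 (adjusted p 0.00685), while its 4 other probe sets changed by 0.04 to 0.19. GNAI2 fell by 0.53 (adjusted p 0.00924) and RHOA by 0.15 (adjusted p 0.00947). The call of RHOA was lost after cyclic loess (adjusted p 0.0660) and without an intensity trend (0.0663).

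Of a list of 14 proteases that can cut these receptors, 4 had a tested probe set, and each of these probe sets rose. Those annotated to PRSS2 and PRSS3 carry the suffix _x_at, and trypsinogen genes are near-identical, so they may read the same transcripts and are not counted as separate genes that rose. The 10 others had no probe set over the detection level in enough arrays, or none that carried their symbol alone. A protease silent in the GFP control could thus be counted only if it came on. MMP1, a collagenase reported to cut F2R, rose by 3.01 (SE 0.18, 8.04-fold, adjusted p 0.000287), from 4.82, 5.06 and 5.47 to 8.28, 8.07 and 8.02. The probe set annotated to PRSS3, a trypsin, rose by 2.86 (SE 0.09, 7.24-fold, adjusted p 2.9e-05), from 7.16, 7.22 and 7.26 to 10.22, 10.05 and 9.94. ST14, the membrane protease matriptase, rose by 1.57 (SE 0.18, 2.97-fold, adjusted p 0.00252), and by 3.10 by its other probe set. The probe set annotated to PRSS2 rose by 1.50 (SE 0.18, adjusted p 0.00321), and which trypsinogen either reads is uncertain.

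Genes known to be induced through tissue factor or its receptors went both ways. Of 17 listed, 11 were measured, and 4 rose, 2 fell and 5 did not pass, with a median of 0.24. The heparin-binding growth factor gene HBEGF rose by 1.10 (SE 0.04, 2.14-fold, adjusted p 5.4e-05), and the cytokine gene LIF by 0.70 (SE 0.08, adjusted p 0.00238). CSF1, the macrophage growth factor gene, fell by 0.89 (SE 0.06, 1.85-fold, adjusted p 0.000429), and VEGFA by 0.62 (SE 0.08, adjusted p 0.00338). Their other tested probe sets moved the same way, by -1.58 and -1.68 for CSF1 and by -0.57 to -0.86 for VEGFA. The chemokine gene CXCL8, a common readout of receptor activation, changed by 0.38 (adjusted p 0.0854) by its brightest probe set and by 1.07 by the other. These genes respond to many signals, and activity of the receptors was not measured.

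**Figure D4:**
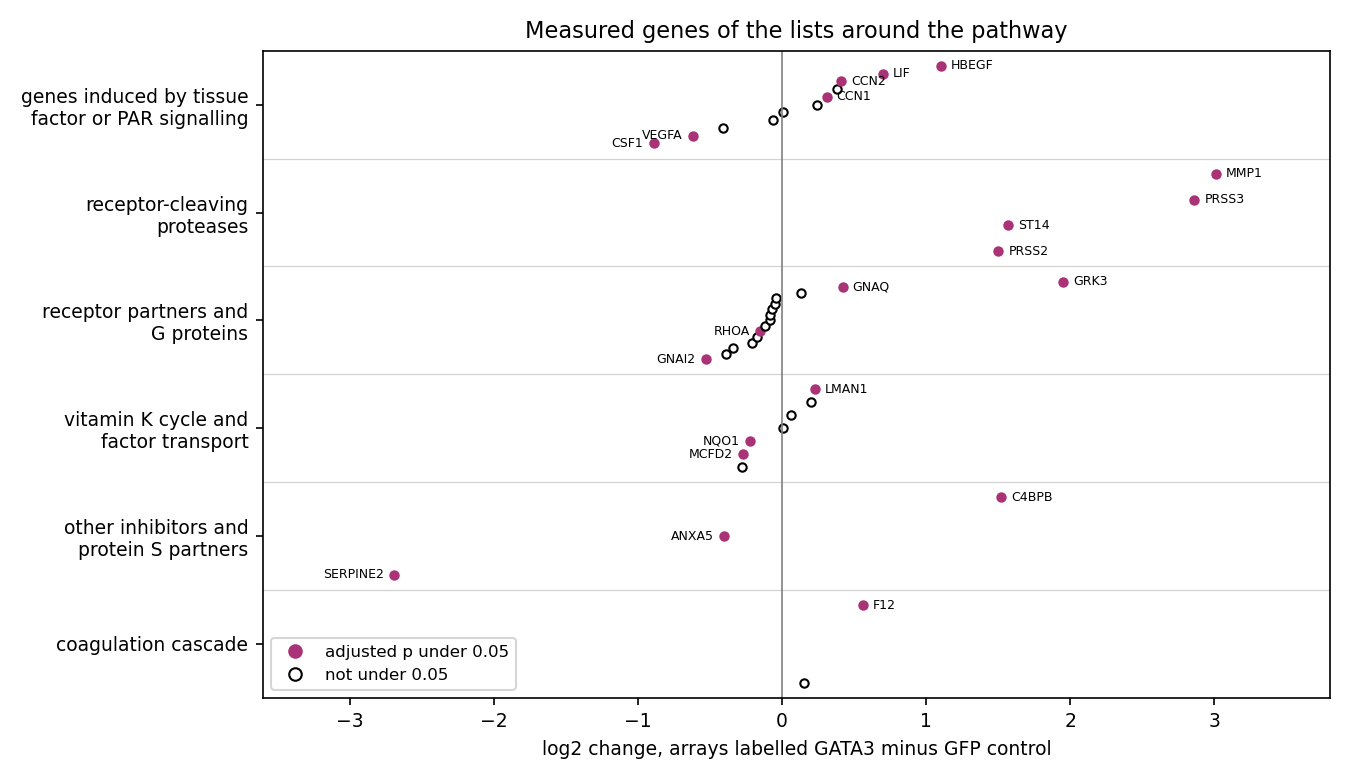
Log2 change (horizontal axis, arrays labelled GATA3 minus GFP control) of the measured genes of the 6 lists, 1 point per gene; filled and named points have an adjusted p under 0.05. The probe sets of the 4 receptor-cleaving proteases, of which PRSS2 and PRSS3 may read the same transcripts, lie between 1.50 and 3.01, SERPINE2 lies at -2.69, and most receptor partners lie near 0.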

How the data were processed

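Single-colour Affymetrix arrays with biotin-labelled RNA were used, 1 per sample, per the labels' protocols. The deposited log2 values come from GCRMA, as the submitters' processing notes state. Its version is not given in the sources used here, and the log2 scale was read from the range of the values. The values were used without further scaling, and 62 control probe sets were left out. The platform annotation gave 1 symbol for 41091 probe sets, several for 1801 and none for 11721. The 23785 probe sets over 4 in at least 3 of 6 arrays were tested with limma 3.58.1 in R 4.3.3 (lmFit, eBayes with an intensity trend, no covariate), with p-values adjusted over all of them by Benjamini-Hochberg and a threshold of 0.05. The fit was checked on simulated data. A gene stands for its brightest tested probe set among those that carry its symbol alone. Promoter sequences are from RefSeq (GRCh38.p14). Members and lists were chosen with earlier results of these data known. All members were named, up to 4 genes of each list with the largest change past the threshold, and the 3 genes nearest in profile to the member with the largest rise and the largest fall; F7, F10, F2, F8, F2RL3 and CXCL8 were named after their values were seen. The number of arrays limits the precision. Alternatives were other filters, scalings, variance models, array weights, a replicate block and each array left out.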

Additional observations from a re-analysis of the deposited data

How the results depend on the processing

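Over the 13 tested member probe sets and 13 alternatives (169 comparisons), 131 kept their direction and side of the threshold, 24 lost a call, 3 gained one and 11 changed sign. The changes of sign concern 2 TFPI probe sets near 0, none of them called. Probe set 209676_at read 0.02 after cyclic loess, 0.05 after quantile normalization, 0.16 with array weights and -0.17 to 0.18 with 1 array left out. Probe set 213258_at read 0.01, 0.02, 0.05 and -0.07 to 0.06. Of the 13 member probe sets, the count that rose was 1 without a filter on low values, which tests more probe sets. It was 1 to 6 with 1 array left out, 1 with the replicate number as a block and 7 with array weights. The count that fell was 1 throughout. Among all tested probe sets, 4264 were higher and 5123 lower with array weights, 1796 to 3581 higher and 1801 to 3752 lower with 1 array left out, and 1767 lower without a filter. In the replicate block fit 2106 were lower. Deviations of same-numbered arrays correlated at -0.135, 0.159 and -0.109, so the numbers are not taken as pairs. In that fit PROS1 (adjusted p 0.0507), TFPI 210665_at (0.0723), F12 (0.0577), LMAN1 (0.0779) and both TFPI2 probe sets (0.0649 and 0.0559) did not pass, and F2R (0.0140) and F3 (0.0157) did. Over the 6 lists, 21 genes were called, and 17 to 25 under the alternatives. Other background corrections were not run.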

Other observations

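Neighbours of the 7 tested members were read by gene order in the RefSeq table, 3 protein-coding genes on each side. Of 40 such neighbours, 18 were tested, and 2 rose and 5 fell, beside 14.8% higher and 14.5% lower over all genes. The 2 of this set with the largest changes were chosen after their values were seen. FOXA2, a forkhead factor of endoderm, lies 3 genes from THBD and read 6.39, 5.83 and 5.74 in the GFP control and 2.35, 2.29 and 2.35 in those labelled GATA3 (at least 3.97-fold lower, adjusted p 0.000124). GULP1, an adaptor for engulfment of dying cells, lies next to TFPI and rose by 1.73 (SE 0.06, 3.31-fold, adjusted p 3.2e-05), from 10.75, 10.67 and 10.65 to 12.35, 12.39 and 12.51. The nearby members THBD and TFPI had no such change by their brightest probe sets, at 0.12 and -0.02.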
